A study of Mus musculus with 2 samples.

Results

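The mitochondrial respiratory chain is built from 2 genomes, and the transcripts of both were compared across the cell types of mouse spleen. Nuclear members were the gene symbols starting with Nduf, Cox, Uqcr or Atp5, and mitochondrial members those starting with mt-Nd, mt-Co, mt-Cyt or mt-Atp. The rule found 97 nuclear and 13 mitochondrial members, 110 of the 31017 symbols in the deposited table. Of the 97, 79 encode structural subunits and 18 are assembly factors, which help to build a complex without being part of it.

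Complex I (NADH dehydrogenase), complex III (cytochrome bc1) and complex IV (cytochrome c oxidase) pass electrons to oxygen and pump protons across the inner mitochondrial membrane. Complex V (ATP synthase) uses the returning protons to make ATP. Mitochondrial DNA encodes 7 subunits of complex I, 1 of complex III, 3 of complex IV and 2 of complex V, which are made inside the organelle. All other subunits are encoded in the nucleus, translated in the cytosol and imported, so that working complexes need products of both genomes.

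Spleen cells were profiled by droplet single-cell RNA sequencing with 3-prime libraries and unique molecular identifiers (UMIs), each of which marks 1 captured transcript. The samples in the labels are 2, from mice 6 to 8 weeks old, 1 titled as WAS-KO, a model of Wiskott-Aldrich syndrome, and 1 titled as wild type. The "mouse model" field of both samples names that syndrome, and the labels give no promoter, allele or number of pooled animals. The counts are 1 table of 7524 barcodes with 1 shared suffix and no map from barcode to sample, so the genotypes are not compared here and no value below has a replicate.

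Barcodes with at least 200 detected genes numbered 7423 and held 46638225 UMIs, with a median depth of 5022, and most of them, from the 5th percentile to the 95th, lay between 652 and 15239 UMIs. Of these, 6588 had at most 10% of UMIs from mitochondrial genes, the limit under which each main value was computed again. Cell types were gated on raw UMIs of marker genes, with at least 2 markers of a type detected and their sum at least 3 times that of any other type. The gates took 6445 barcodes, and of the 978 left out 476 held at least 2 markers of 2 or more types. Each gated type is called by its name with "-like". The median depth ran from 742 UMIs in megakaryocyte-like and 859 in macrophage-like to 29101.5 in plasma-like barcodes, and the plasmacytoid dendritic cell-like (pDC-like) gate held only 11 barcodes. In the macrophage-like gate 8 of 8 markers were found in at least 10% of barcodes, but the markers of the monocyte list, which include Csf1r, also summed to 2542 CPM (counts per 1000000 UMIs of the group) against 18174 CPM for its own. In every other gate the strongest markers of another type lay at 1003 CPM or below. Intervals are exact at 95% and cover counting error only.

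Members were not measured equally. No UMI was found for 3 of the 97 nuclear members (Cox7b2, Cox8b and Cox8c), which are tissue variants of subunits, and 3 others had 2 to 35 UMIs (Ndufa4l2, Cox7a1 and Cox4i2). The other 91 had at least 100 UMIs. The nuclear members summed to 690535 UMIs, 3.81% of them from assembly factors, and the 13 mitochondrial members to 2429653.

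Upstream sequence is shown for 3 nuclear subunit genes whose family has a second copy with a narrow pattern in the results below. Cox6a1 encodes the widely expressed form of subunit VIa of complex IV, and Cox6b1 and Cox6b2 encode the widely expressed and the testis-type form of subunit VIb. The stretches come from RefSeq (GRCm38.p6), all from the minus strand, and end before the first annotated transcript start in the window. They lie at chr5:115348982-115349208 (Cox6a1, 227 bases), chr7:30626152-30626364 (Cox6b1, 213 bases) and chr7:4753095-4753344 (Cox6b2, 250 bases), and read 5′ to 3′. Capitals mark a match to the NRF1 motif.
Cox6a1: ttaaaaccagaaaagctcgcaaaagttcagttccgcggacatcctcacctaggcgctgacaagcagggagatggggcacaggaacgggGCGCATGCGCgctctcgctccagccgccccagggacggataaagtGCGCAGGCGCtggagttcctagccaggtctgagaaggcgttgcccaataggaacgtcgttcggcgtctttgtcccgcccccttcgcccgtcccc
Cox6b1: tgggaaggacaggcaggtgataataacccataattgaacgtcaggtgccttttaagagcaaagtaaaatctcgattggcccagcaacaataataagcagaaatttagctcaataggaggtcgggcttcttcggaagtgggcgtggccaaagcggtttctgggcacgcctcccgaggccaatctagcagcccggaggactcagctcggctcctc
Cox6b2: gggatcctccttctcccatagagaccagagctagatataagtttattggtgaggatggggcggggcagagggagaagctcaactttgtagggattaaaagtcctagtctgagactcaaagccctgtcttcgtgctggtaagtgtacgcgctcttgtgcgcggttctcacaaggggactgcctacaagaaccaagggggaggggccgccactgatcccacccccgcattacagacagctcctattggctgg

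Both strands were searched for 3 motifs of factors known to act on nuclear respiratory genes: GCGCA and GCGC with 1 base between them for NRF1, CCGGAAGT for ETS factors such as GABP, and AAGATGGC for YY1. RefSeq promoter windows, from 250 bases before to 50 after the start, were found for 80 of the 97 nuclear members. The NRF1 letters stood in 16 of these 80 windows (20%), against 4.78% of 27025 windows of all genes. For ETS the count was 8 of 80 (10% against 4%) and for YY1 12 of 80 (15% against 2.88%). At least 1 of the 3 motifs stood in 33 of 80 (41.25%), against 10.8% of all windows. The 2 NRF1 matches in the Cox6a1 stretch overlap neither each other nor another motif, and the Cox6b1 and Cox6b2 stretches hold none of the 3.

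The mitochondrial share of UMIs spanned 1.64% to 13.6% over the 11 gates and the nuclear share 0.796% to 2.17%. In B-like barcodes, the largest gate (n = 3163), nuclear members took 1.49% of UMIs (1.48 to 1.49) and mitochondrial members 6.99% (6.97 to 6.998), a ratio of 0.213 nuclear UMIs to each mitochondrial UMI. In T-like barcodes (n = 1066) nuclear members took 1.65% (1.64 to 1.66) and mitochondrial members 4.89% (4.88 to 4.91), a ratio of 0.338. Natural killer cell-like barcodes (n = 315) lay further along the same line, with 1.87% nuclear, 3.92% mitochondrial and a ratio of 0.478. Neutrophil-like barcodes (n = 196) had the highest ratio without a limit, 0.624 (0.614 to 0.634), from 1.11% nuclear and 1.78% mitochondrial UMIs. With the 10% limit it was 0.639 (0.628 to 0.649), overlapping conventional dendritic cell-like barcodes at 0.623 (0.606 to 0.640), and with a limit of 5% it was 0.672, below the latter (0.769) and macrophage-like barcodes (1.09) and below the 1 pDC-like barcode left (1.43).

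**Figure D1:**
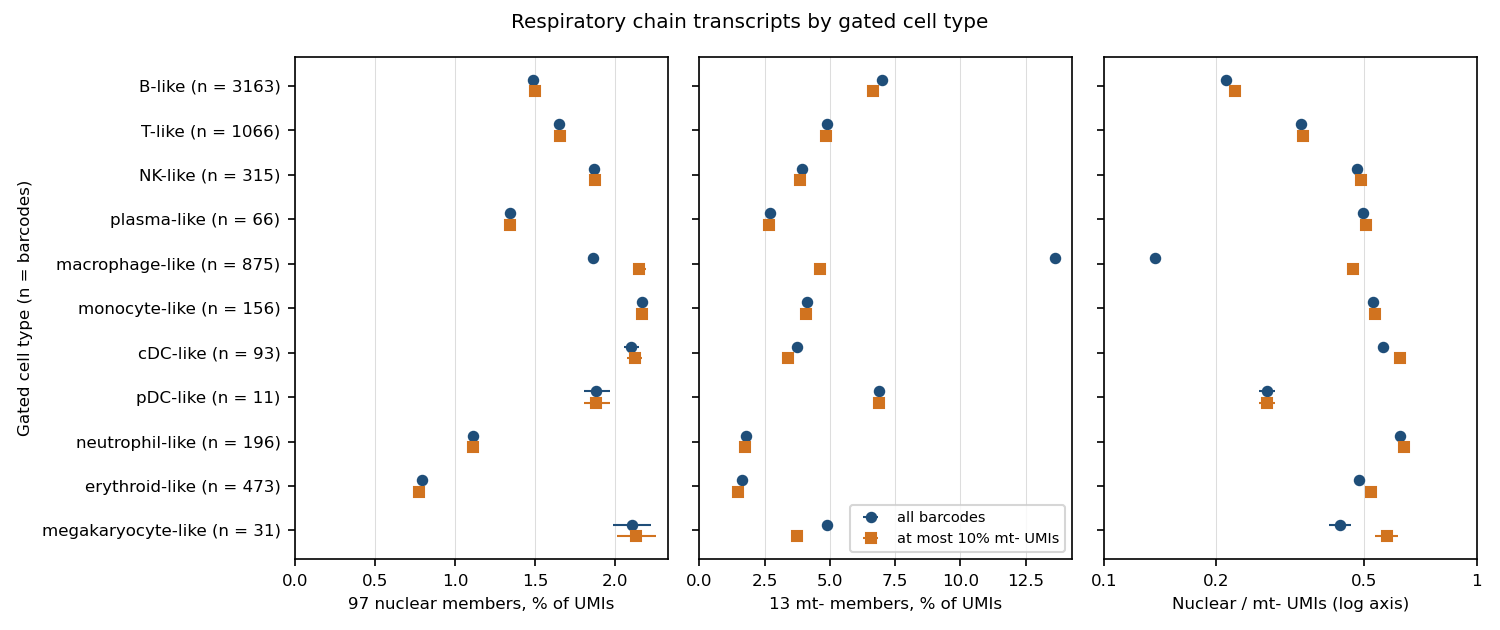
Share of UMIs from the 97 nuclear members (left) and the 13 mitochondrial members (middle) and their ratio (right, log axis) in each gated cell type, with all barcodes (circles) and with at most 10% mitochondrial UMIs (squares). Bars are exact 95% counting intervals, and the macrophage-like ratio moves from 0.137 to 0.466 with the limit.

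Without the limit the order of the ratios was macrophage-like (0.137), B-like (0.213), pDC-like (0.274), T-like (0.338), megakaryocyte-like (0.430), NK-like (0.478), erythroid-like (0.484), plasma-like (0.494), monocyte-like (0.526), conventional dendritic cell-like (0.562) and neutrophil-like (0.624). The neighbours NK-like and erythroid-like, and erythroid-like and plasma-like, had overlapping counting intervals, and the other neighbours did not. The megakaryocyte-like place rested on few barcodes, since the 2 deepest of its 31 held 60.0% of its nuclear UMIs. Without these 2 its ratio was 0.324 and its nuclear share 1.91%. The nuclear share reached 2.17% in monocyte-like, 2.10% in conventional dendritic-like and 2.11% in megakaryocyte-like barcodes and was 0.796% in erythroid-like barcodes, the lowest of the 11 gates. This order depends on what fills the total: without immunoglobulin, haemoglobin and mitochondrial UMIs erythroid-like barcodes had the highest nuclear share, 2.69%, and neutrophil-like ones the lowest, 1.14%. Single barcodes of a gate overlapped other gates widely. The interquartile range of the nuclear share was 1.21 to 1.58% in B-like and 1.40 to 1.74% in T-like barcodes. For the mitochondrial share it was 5.85 to 7.87% and 4.12 to 5.51%, without overlap.

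On the log2 scale the T-like ratio lay 0.67 above the B-like one (0.66 to 0.67), with a nuclear share 0.15 higher and a mitochondrial share at -0.51. Depth moved with both quantities. In B-like barcodes the nuclear share was 1.37% at 2000 to 5000 UMIs and 2.45% above 20000, and the ratio ran from 0.134 below 2000 to 0.413 above 20000 UMIs. The lowest band depends on the limit: with at most 10% mitochondrial UMIs its 65 barcodes had a ratio of 0.842 and a nuclear share of 2.24%, against 1.49% for the 110 without the limit. The bands above it ran from 0.210 to 0.413 with the limit. Compared without the limit within the same bands of depth, the T-like ratio was the higher one in 5 of 5, for example 0.324 against 0.206 between 5000 and 10000 UMIs. CD4 and CD8 T-like barcodes (n = 513 and 313) were close to each other, with ratios of 0.340 and 0.338 and a log2 difference of -0.01 (-0.03 to 0.01).

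The macrophage-like gate held more than its part of the barcodes that a 10% mitochondrial limit removes. Of its 875 barcodes 462 were over the limit (52.8%, Clopper-Pearson 49.4 to 56.2), and they made up 55.3% of all 835 such barcodes. The shares were 6.42% in B-like (203 of 3163), 1.59% in T-like (17 of 1066), 1.90% in erythroid-like and 2.04% in neutrophil-like barcodes, and 5 of 31 megakaryocyte-like barcodes were over it. For macrophage-like barcodes the limit lowered the mitochondrial share from 13.6% to 4.62% and raised the nuclear share from 1.86% to 2.15%. Their log2 ratio over B-like barcodes was -0.64 (-0.66 to -0.62) without the limit and 1.05 (1.02 to 1.08) with it, so its direction depends on the filter. The limit acts on UMIs of the same 13 mitochondrial members that divide the ratio, so this move is partly built in. With a limit of 5% the T-like ratio also turned, to -0.21 on the log2 scale over B-like barcodes. That limit left 322 of the 3163 B-like and 641 of the 1066 T-like barcodes. Without the limit the macrophage-like log2 ratio was -0.77 with each barcode thinned to 1000 UMIs and -0.54 between 5000 and 10000 UMIs, where 7 macrophage-like barcodes remained.

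Within macrophage-like barcodes the nuclear share was lower at higher mitochondrial shares, but less so than in B-like ones. With mitochondrial UMIs taken out of the total, nuclear members were 2.67% of UMIs in barcodes with 0 to 2% mitochondrial UMIs (n = 152), 2.28% at 2 to 5%, 2.0% at 5 to 10%, 2.07% at 10 to 20% and 2.04% at 20 to 50% (n = 211). In the 13 barcodes above 50% the value was 1.80%. In B-like barcodes it was 2.30% at 0 to 2% (n = 84), 1.58% at 5 to 10% (n = 2638), 1.46% at 10 to 20% (n = 167) and 0.683% at 20 to 50% (n = 35). The median depths of the last band were 973 UMIs in macrophage-like and 1475 in B-like barcodes. In that band cytoplasmic ribosomal protein genes were 16.6% of the non-mitochondrial UMIs of macrophage-like and 12.5% of those of B-like barcodes, against 17.4% and 27.5% at 5 to 10%. Haemoglobin, a transcript of other cells, took 2.49% of all UMIs in macrophage-like and 0.311% in B-like barcodes, and 9.72% in the macrophage-like band of 2 to 5%. With immunoglobulin, haemoglobin and mitochondrial UMIs out of the total, the nuclear share of macrophage-like barcodes was 2.69%, 2.54%, 2.08%, 2.10%, 2.07% and 1.82% from the lowest band of mitochondrial share to the highest.

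**Figure D2:**
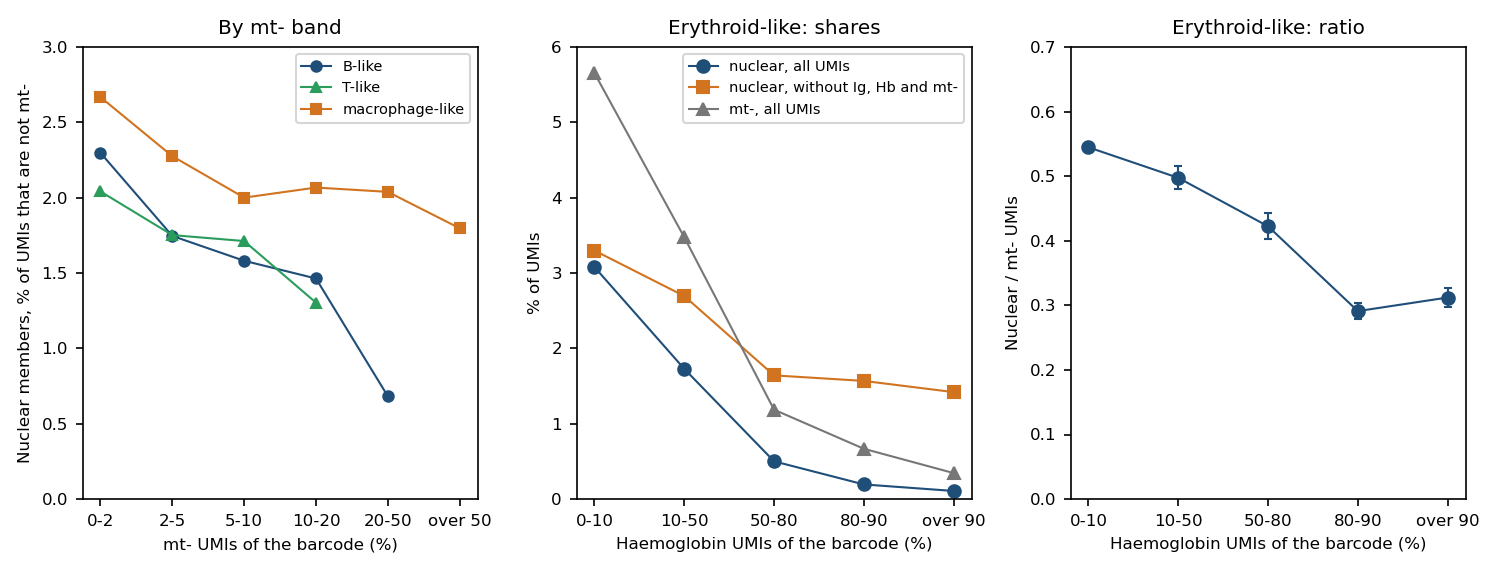
Left, nuclear members as a percentage of UMIs that are not mitochondrial, by band of the barcode's mitochondrial share, in B-like, T-like and macrophage-like barcodes. Middle and right, erythroid-like barcodes by haemoglobin share: nuclear and mitochondrial shares, and the ratio with its 95% counting interval, which goes from 0.545 to 0.312.

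Comparing single genes with B-like barcodes, a member was called apart at 1.5-fold or more if its gene had 100 UMIs or more in the 2 types together. Since these are sums over 1 pooled table, a call is a size and carries no p-value. In macrophage-like barcodes 11 of 89 nuclear members that passed the UMI minimum were higher and 7 lower, against a background of 18.8% of all 9005 genes higher and 44.6% lower. Relative to the median gene, at log2 -0.44, 47 were higher and 3 lower (30.2% and 30.3% of genes). With the 10% limit 31 were higher and 6 lower on the first scale (background 20.4% and 41.2%). Without the limit 7 of 18 assembly factors were lower and 1 higher, a share lower that is below the background, while of 71 subunits 10 were higher and 0 lower. With it, 5 assembly factors were lower and 2 higher, and of the 71 subunits 1, of complex I, was lower and 29 higher.

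Cox5a, the nuclear subunit Va of complex IV, was 887 CPM in macrophage-like barcodes, against 259 CPM in B-like, 271 in T-like, 445 in monocyte-like, 456 in conventional dendritic-like and 657 in megakaryocyte-like barcodes, the last on 39 UMIs. Its log2 ratio over B-like was 1.78 (1.68 to 1.88), and it was found in 497 of 875 barcodes with at most 13 UMIs in any of them. Per 1000000 non-mitochondrial UMIs it was 1228 in macrophage-like barcodes with 0 to 2% mitochondrial UMIs and 801 in those with 20 to 50%, against 445 and 64.4 in B-like ones, the last on 3 UMIs. Cox5b (subunit Vb of the same complex) was 311 CPM in macrophage-like and 267 in B-like barcodes. Ndufc2, an accessory subunit of complex I, was next at 214 against 106 CPM (log2 1.02), followed by Uqcr11 of complex III at 282 against 154 CPM (0.87), Ndufv3 of complex I at 148 against 87.9 CPM (0.75) and the assembly factor Cox14 at 175 against 106 CPM (0.72). The 5 lowest rested on few UMIs: Atp5s (2 UMIs, log2 -1.80, -4.86 to 0.08), Cox11 (4 UMIs, -1.75), Ndufaf4 (15 UMIs, -1.48), Cox18 (7 UMIs, -0.94, -2.27 to 0.13) and Ndufaf6 (5 UMIs, -0.78, -2.42 to 0.48). The intervals of Atp5s, Cox18 and Ndufaf6 included 0. All 5 passed the UMI minimum only through B-like barcodes, where they are high and had 122 to 733 UMIs.

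**Figure D3:**
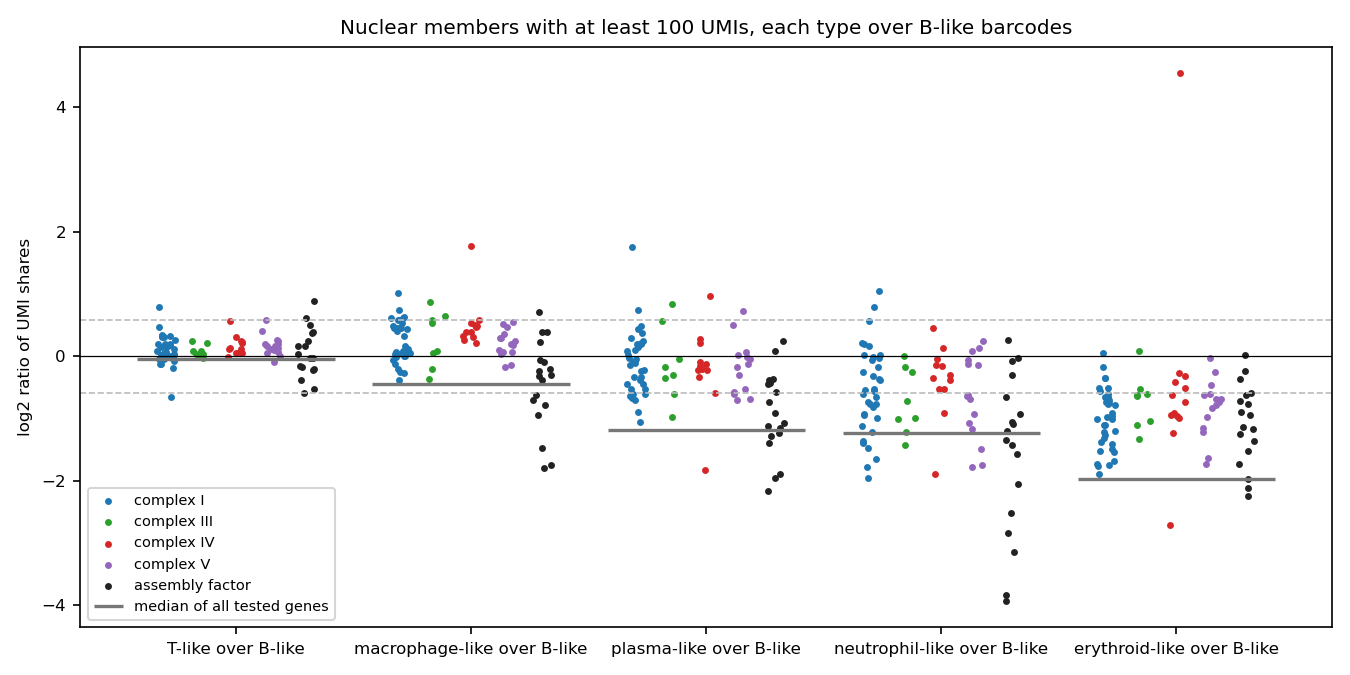
log2 ratio of UMI shares over B-like barcodes for each nuclear member with at least 100 UMIs (points, by complex), with the median of all tested genes (grey bars) and the 1.5-fold lines (dashed). Cox6b2 in erythroid-like barcodes is the highest point at 4.55, and assembly factors reach down to -3.93 in neutrophil-like barcodes.

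T-like barcodes were close to B-like ones gene by gene: 3 of 89 nuclear members were higher and 1 lower, against 13.9% and 18% of 9461 genes. Relative to the median gene the counts were 5 and 1 (14.8% and 16.9% of genes). The higher ones were Cox10, an enzyme of haem a synthesis for complex IV, at 24.0 against 12.98 CPM (log2 0.89, 0.60 to 1.17), Ndufv3 at 152 against 87.9 CPM (0.79, 0.69 to 0.90) and the complex IV assembly factor Cox20 at 88.6 against 57.6 CPM (0.62, 0.48 to 0.76). Ndufs8, an iron-sulphur subunit of complex I, was lower at 64.8 against 102 CPM (-0.66, -0.81 to -0.52). Cox20 overlaps Hnrnpu on the other strand, and whether counting used strand is not given in the sources used here. Hnrnpu was 406 CPM in T-like and 445 CPM in B-like barcodes. Of the 13 mitochondrial members, 0 were higher and 3 lower by 1.5-fold in T-like barcodes, and their log2 ratios spanned -0.69 to -0.33.

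In neutrophil-like barcodes the direction of the nuclear share depended on the scaling: its log2 ratio over B-like barcodes was -0.42 as a share of all UMIs and 0.79 by median-of-ratios scaling. Of 89 nuclear members 2 were higher and 47 lower, against a background of 12.1% and 69.3% of 9064 genes, so that fewer members were lower than among all genes. The median log2 ratio was -0.64 over these members and -1.23 over all tested genes, and relative to that median gene 45 were higher and 8 lower (background 32.2% and 33.3%). The higher ones were both complex I subunits, Ndufv3 at 182 against 87.9 CPM (log2 1.05, 0.89 to 1.21) and Ndufb7 at 295 against 171 CPM (0.79, 0.66 to 0.91). Of the 18 assembly factors 14 were lower, with a median of -1.27, close to that of all tested genes, and relative to the median gene 4 were higher and 6 lower. The 71 subunits had a median of -0.53. Ndufaf4 had 6 UMIs, 2.73 against 39.2 CPM (-3.84, -5.29 to -2.71), and Cox10 had 5 (-2.51, -4.15 to -1.27). Ndufaf5, Ndufaf6 and Atp5s had 1 or 2 UMIs, with log2 ratios of -3.93 (-9.25 to -1.43), -3.14 (-6.20 to -1.26) and -2.84 (-5.90 to -0.96). All of these named assembly factors passed the UMI minimum only through B-like barcodes, where they are high and had 122 to 733 UMIs.

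The make-up of the mitochondrial transcripts also differed from B-like barcodes. In the neutrophil-like gate mt-Co1, the catalytic subunit of complex IV, was 25.9% of the mitochondrial UMIs (25.5 to 26.4), against 16.5% in B-like barcodes and 16.4 to 19.9% in the other 9 gates. The level was not particular to that gate, since the 351 erythroid-like barcodes with fewer than 3 of 9 cell cycle genes had 26.4% (25.8 to 27.0). The 122 with at least 3 had 15.3%. The 7 complex I members together were 12.4% (12.0 to 12.7) in neutrophil-like and 20.1% in B-like barcodes (14.6% in the 351 erythroid-like ones), with mt-Nd1 at 2.65% against 4.80% and mt-Nd2 at 2.30% against 5.35%. All 13 mitochondrial members were lower per UMI, from log2 -1.32 for mt-Co1 to -3.19 for mt-Nd2. For complex I alone the ratio of nuclear to mitochondrial UMIs was 1.56 (1.51 to 1.62) in neutrophil-like and 0.302 in B-like barcodes, and for complex IV 0.278 and 0.110. mt-Nd6 lies antisense to the end of mt-Nd5, and mt-Atp8 and mt-Nd4l overlap mt-Atp6 and mt-Nd4, so the split of reads within these pairs is uncertain.

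**Figure D4:**
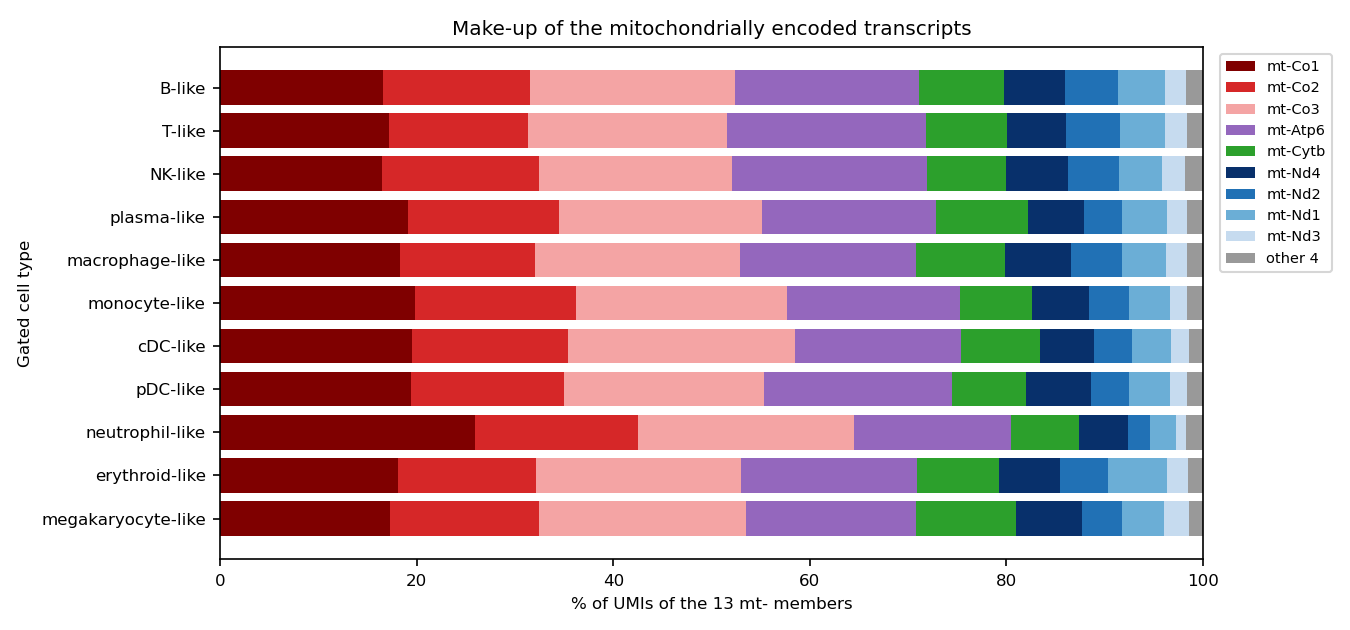
Share of each mitochondrial member in the UMIs of all 13, by gated cell type, with complex IV members in reds, mt-Atp6 in purple, mt-Cytb in green, 4 complex I members in blues and the other 4 members in grey. Neutrophil-like barcodes show the widest mt-Co1 segment, 25.9%, and the narrowest mt-Nd1, mt-Nd2 and mt-Nd3 segments.

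Neutrophil-like barcodes with more UMIs of the granule genes Ngp, Camp and Ltf (n = 130) were compared with those with more of the receptor genes Cxcr2, Il1r2 and Csf3r (n = 66). The nuclear to mitochondrial ratio was 0.662 (0.651 to 0.673) in the first and 0.355 (0.336 to 0.375) in the second. With the 10% limit the first did not change, and the second, with 62 barcodes left, had a ratio of 0.430 (0.406 to 0.456). mt-Co1 was 26.8% of mitochondrial UMIs in the first and 19.9% (18.8 to 21.0) in the second, and the complex I members 11.5% and 18.5%. Median depth differed alongside, at 14421.5 and 2560 UMIs. Over all neutrophil-like barcodes the ratio was 0.354 below 2000 and 0.282 at 2000 to 5000 UMIs, and 0.791, 0.639 and 0.703 in the bands above. The part of depth was not tested. Glycolysis genes, from a list of 14, stood mostly above the B-like level in neutrophil-like barcodes: 10 were higher and 3 lower by 1.5-fold. The background was 12.1% and 69.3% of all genes. Relative to the median gene 11 were higher and 0 lower (32.2% and 33.3% of genes). Hexokinase 2 (Hk2) was at 66.9 against 6.36 CPM and pyruvate kinase (Pkm) at 595 against 155 CPM.

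Plasma-like barcodes, in which immunoglobulin transcripts took 44.3% of UMIs, had 5 of 89 nuclear members higher and 27 lower, against 7.09% and 73.1% of 8887 genes. With the median gene, at log2 -1.18, as the reference, 64 were higher and 4 lower (27.4% and 27.7% of genes). Without immunoglobulin, haemoglobin and mitochondrial UMIs in the total, nuclear members were 2.54% of UMIs in plasma-like and 1.64% in B-like barcodes. The direction of the nuclear share thus depends on the scaling. When every barcode holding 2 markers of another type was left out, 4 plasma-like barcodes remained, and for these the log2 ratio over B-like barcodes was -0.94.

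In plasma-like barcodes Ndufa1, a small membrane subunit of complex I encoded on chromosome X, was 421 CPM against 125 CPM (log2 1.75, 1.63 to 1.87). It had UMIs in 60 of 66 barcodes, and no other type was above 231 CPM. Ndufa4, counted here with complex IV, was 620 against 317 CPM (0.97), Uqcrq of complex III 301 against 167 CPM (0.85), Ndufs5 of complex I 179 against 107 CPM (0.75) and Atp5g1, which encodes the proton-carrying c subunit of ATP synthase, 296 against 178 CPM (0.74). At the other end stood Ndufaf5 (3 UMIs, log2 -2.16, -4.45 to -0.58), Ndufaf6 (4 UMIs, -1.95), Cox20 (15.6 against 57.6 CPM, -1.89), Cox7a2l (94.95 against 337 CPM, -1.83) and Cox15 (8 UMIs, -1.40). Cox15, a later enzyme of the same synthesis as Cox10, overlaps Entpd7 and Cutc on the other strand. Relative to the median gene, Ndufaf5, Ndufaf6, Cox20 and Cox7a2l stayed lower by 1.5-fold, and Cox15 did not. Of these, Ndufaf5, Ndufaf6, Cox20 and Cox15 passed the UMI minimum only through B-like barcodes, where they are high.

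Erythroid-like barcodes carried haemoglobin in 68.7% of their UMIs, so every other share is smaller. Of 90 nuclear members 1 was higher and 70 lower than in B-like barcodes, against 6.41% and 84.8% of 9076 genes. With the median gene at log2 -1.98 as the reference, 73 were higher and 1 lower (32.7% and 33.3% of genes). The 1 called higher on the first scale was Cox6b2, with 207 UMIs here and 29 in B-like barcodes. It thus passed the UMI minimum only through the gate where it is high. Without immunoglobulin, haemoglobin and mitochondrial UMIs the nuclear share was 2.69%, against 1.64% in B-like barcodes. The 24 deepest barcodes of the 473 held 67.4% of the nuclear UMIs of the gate, and without them the ratio was 0.370 in place of 0.484. The cytoplasmic ribosomal protein genes had a median of -1.92, near that of all tested genes. The 5 lowest members were Cox7a2l (log2 -2.71), the assembly factors Cox16 (29 UMIs, -2.25) and Cox14 (-2.12), Cox15 (16 UMIs, -1.97) and the complex I subunit Ndufa13 (-1.89), of which Cox7a2l alone stayed lower by 1.5-fold relative to the median gene. Cox16 and Cox15 passed the UMI minimum only through B-like barcodes.

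The nuclear share was lower in each higher band of haemoglobin. Nuclear members took 3.08% of UMIs in erythroid-like barcodes with 0 to 10% haemoglobin (n = 54), 1.73% at 10 to 50% (n = 30), 0.501% at 50 to 80% (n = 55), 0.194% at 80 to 90% (n = 141) and 0.108% above 90% (n = 193). As haemoglobin fills the total, this order is partly built in. Without immunoglobulin, haemoglobin and mitochondrial UMIs the values were 3.30%, 2.69%, 1.64%, 1.57% and 1.42%. Mitochondrial members did not keep this order, at 5.71%, 5.14%, 3.74%, 5.11% and 4.35% of UMIs without immunoglobulin and haemoglobin. The ratio, which haemoglobin does not enter, was 0.545 (0.537 to 0.552) in the first band and 0.497, 0.422, 0.291 and 0.312 (0.298 to 0.327) in the next ones. With the 10% mitochondrial limit it was 0.596 (0.5875 to 0.604) at 0 to 10% haemoglobin and 0.603 (0.581 to 0.626) at 10 to 50%, with overlapping intervals. The higher bands did not change with the limit. Bnip3l, a receptor for the removal of mitochondria in maturing red cells, was 700 CPM in erythroid-like and 98.4 CPM in B-like barcodes (log2 2.83), the largest ratio in the mitophagy list. Its paralogue Bnip3 went the other way, at 1.22 against 7.26 CPM (log2 -2.57). Of 7 genes of that list tested, 4 were higher and 3 lower (6.41% and 84.8% of all genes). Relative to the median gene 5 were higher and 1 lower (32.7% and 33.3%).

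Barcodes with at least 3 of 9 cell cycle genes had more nuclear transcripts of the chain in the 6 gates compared. Cycling erythroid-like barcodes (n = 122) had a nuclear share of 1.99% and a ratio of 0.546, against 0.190% and 0.302 in the 351 others. Haemoglobin took 31.3% of UMIs in the former and 87.7% in the latter, and without immunoglobulin, haemoglobin and mitochondrial UMIs the nuclear shares were 3.07% and 1.63%. The log2 difference in nuclear share was 0.64 (0.62 to 0.66) in B-like, 0.66 (0.63 to 0.69) in T-like, 0.54 (0.50 to 0.57) in neutrophil-like, 0.55 (0.52 to 0.57) in monocyte-like and 0.27 (0.18 to 0.36) in macrophage-like barcodes. The mitochondrial share was lower in cycling B-like and T-like barcodes (-0.23 and -0.19) and in cycling macrophage-like ones (-0.43, but -0.075 with an interval of -0.16 to 0.013 under the 10% limit). It was higher in cycling neutrophil-like (0.12), monocyte-like (0.080) and erythroid-like barcodes (2.54, with haemoglobin in the total). Cycling barcodes were deeper in 5 of the 6 gates, with medians of 8994 against 5059.5 UMIs in B-like and 17555.5 against 6822 in T-like barcodes, and shallower in erythroid-like ones (10905 against 11566). The part of depth in these differences was not tested.

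Several subunits have paralogues, and their shares differed between gates. Each UMI is a 3-prime tag of 1 transcript, so shares within a family do not depend on transcript length. Cox6a2 is known as the heart and muscle form of subunit VIa. Of its 217 UMIs, 134 lay in the 11 pDC-like barcodes and 57 in 3 ungated barcodes, while B-like barcodes held 9, NK-like 8, T-like 5, conventional dendritic-like 3 and erythroid-like 1. The 11 pDC-like barcodes held 28, 22, 20, 17, 17, 13, 8, 4, 3, 2 and 0 Cox6a2 UMIs, and 10 of them thus had at least 2. In the same order they held 0, 0, 1, 1, 0, 1, 3, 3, 2, 1 and 4 UMIs of Cox6a1, the form used elsewhere. Summed, Cox6a2 was 89.3% of the COX6A UMIs (83.3 to 93.8), but the barcodes differed, from 28 against 0 to 0 against 4.

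In pDC-like barcodes the Cox6a2 level was 1205 CPM, or 1047 without the barcode richest in it. It was found in 6 of 3163 B-like barcodes, at a level of 0.481 CPM, in 6 of 315 NK-like and 2 of 93 conventional dendritic-like barcodes, and in none of the 875 macrophage-like ones, which allows a level of up to 2.81 CPM (3 counts). Median depths were 10720 UMIs in pDC-like and 5084 in B-like barcodes. Cox6a2 (chromosome 7, 128205435 to 128206387, minus strand, GRCm38) overlaps Itgad on the other strand. Itgad was 542 CPM in macrophage-like barcodes, where Cox6a2 had no UMI, and 27.0 CPM in pDC-like ones. Chromosome 7 also holds Cox6b2 at 4751792 to 4753094, with no annotated gene overlapping it.

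Cox6b2 was found mainly in erythroid-like barcodes. It had 207 UMIs there, 36.2 against 1.55 CPM in B-like barcodes (log2 4.55, 3.98 to 5.16), and was found in 67 of 473 barcodes. With 29 UMIs in B-like barcodes, it passed the UMI minimum for a call only through the erythroid-like gate. It made up 18.8% of the COX6B UMIs (16.5 to 21.2), against 0.511% in B-like, 3.15% in monocyte-like and 2.67% in neutrophil-like barcodes. Its level was 141 CPM at 0 to 10% haemoglobin and 4.37 CPM above 90%. Its share of the family was 17.5% in the first band (14.98 to 20.2) and 25% in the last (12.7 to 41.2), with overlapping intervals.

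**Figure D5:**
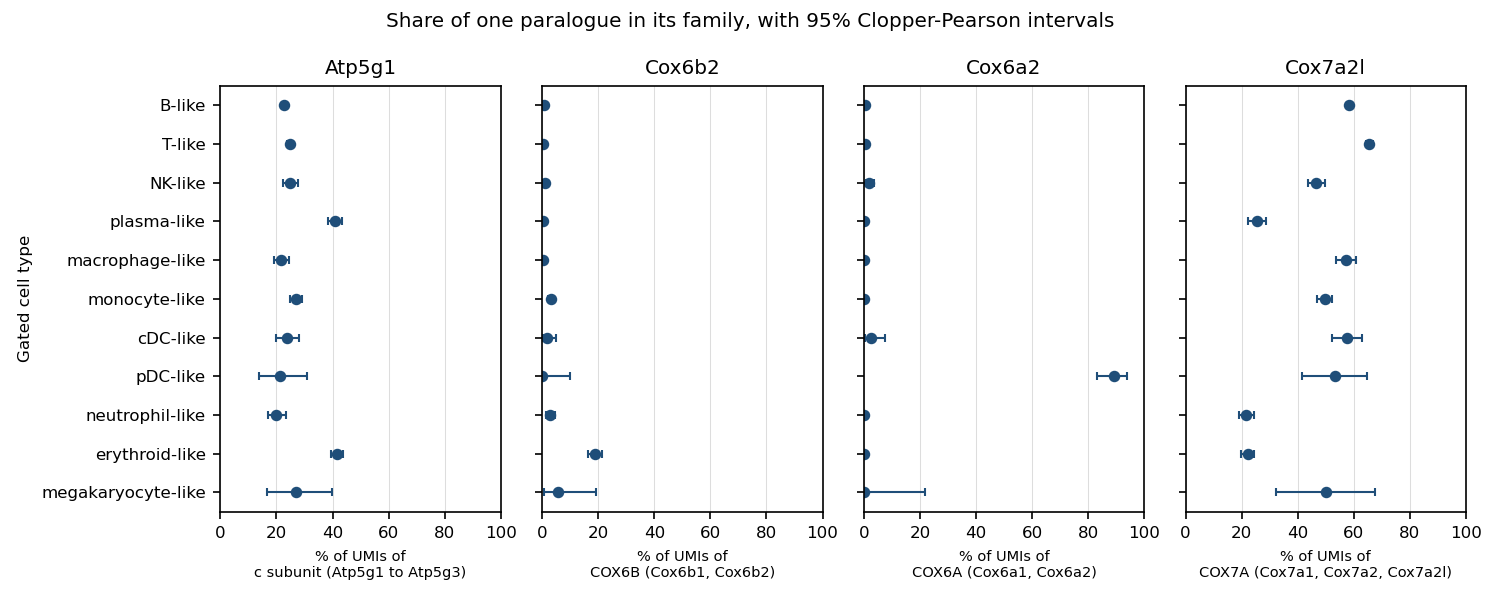
Share of Atp5g1, Cox6b2, Cox6a2 and Cox7a2l in the UMIs of their paralogue family, by gated cell type, with 95% Clopper-Pearson intervals. Cox6a2 reaches 89.3% in pDC-like barcodes, and Cox6b2 18.8% and Atp5g1 41.6% in erythroid-like ones.

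The c subunit of ATP synthase is encoded by 3 genes whose mature proteins are the same. Atp5g2 led in B-like barcodes with 57.5% of the family's UMIs, and Atp5g1 had 22.7% (22.1 to 23.4). In erythroid-like barcodes Atp5g1 led with 41.6% (39.6 to 43.6) against 34.5% for Atp5g2. In plasma-like ones it had 40.8% (38.2 to 43.4) and Atp5g2 38.0%, with overlapping intervals, and in the other 8 gates it had 20 to 27.0%. Cox7a2l, which helps complexes III and IV to join, was 58.4% of the COX7A UMIs in B-like and 65.6% in T-like barcodes. Its share was 25.4% in plasma-like, 22.1% in erythroid-like (51.4 against 337 CPM, log2 -2.71) and 21.7% in neutrophil-like barcodes, where Cox7a2 led with 74.6%, 77.9% and 78.2%. Cox4i2, the low-oxygen form of subunit IV, had 17 of its 35 UMIs in macrophage-like barcodes, 2.16% of the COX4 UMIs (1.26 to 3.43), against 0.0316% in B-like ones.

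Other mitochondrial gene lists were counted in the same way. Their backgrounds of genes higher and lower were 18.8% and 44.6% in macrophage-like barcodes and 12.1% and 69.3% in neutrophil-like ones. They were 6.41% and 84.8% in erythroid-like and 13.9% and 18% in T-like barcodes. Relative to the median gene they were 30.2% and 30.3%, 32.2% and 33.3%, 32.7% and 33.3%, and 14.8% and 16.9%, in the same order. Complex II, which the rule leaves out, is encoded only in the nucleus. Of its 4 genes 2 were higher and 0 lower in macrophage-like barcodes (Sdhc at 114 against 34.6 CPM). In erythroid-like barcodes 0 were higher and 3 lower (84.8% of all genes were lower), but relative to the median gene 3 were higher and 0 lower. In neutrophil-like ones 3 were lower (background 69.3%), and relative to the median gene 1 was higher and 0 lower.

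Of 15 genes of the citric acid cycle 13 were lower in erythroid-like barcodes, near the background of 84.8%, and relative to the median gene 10 were higher and 0 lower. In neutrophil-like barcodes 13 were lower (background 69.3%), and relative to the median gene 2 were higher and 4 lower. In T-like barcodes 1 of the 15 was higher and 1 lower (13.9% and 18% of all genes), also relative to the median gene (14.8% and 16.9%). The higher was Pdha1 at 79.5 against 46.6 CPM in B-like barcodes, and the lower fumarase (Fh1) at 24.6 against 68.4 CPM. Of 23 genes of protein import tested, 19 were lower in erythroid-like barcodes, near the background, and 19 higher and 1 lower relative to the median gene. In neutrophil-like barcodes 18 were lower (background 69.3%), and relative to the median gene 5 were higher and 10 lower (32.2% and 33.3%).

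Genes of mitochondrial genome expression were lower in 9 of 10 cases in macrophage-like barcodes (background 44.6%), but in 5 of 9 with the 10% limit (41.2%) and in 4 of 10 relative to the median gene (30.3%). In neutrophil-like barcodes 8 of 9 were lower (69.3%), and 6 of 9 relative to the median gene (33.3%). In T-like barcodes 0 of 10 were higher and 0 lower. Of 77 mitochondrial ribosomal protein genes tested, 68 were lower and 1 higher in neutrophil-like barcodes (69.3% and 12.1%). Relative to the median gene 31 were lower and 11 higher (33.3% and 32.2%). In T-like barcodes 4 were higher and 2 lower (13.9% and 18%). Among the regulators, Nrf1, which encodes the NRF1 factor, was 14.0 CPM in macrophage-like and 57.9 CPM in B-like barcodes. Of the 7 regulators tested there, 0 were higher and 3 lower, near the background for lower genes (18.8% and 44.6%). All 7 of 7 regulators tested were lower in erythroid-like barcodes (background 84.8%), and relative to the median gene 1 was higher and 1 lower (32.7% and 33.3%).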

How the data were processed

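The 2 labelled samples were deposited as 1 table of raw UMI counts per gene symbol and barcode, with no per-sample columns. Per the labels' protocols the libraries were 10x Genomics 3-prime libraries and the reference was mm10-3.0.0. The program, its strand setting and the cell calling are not stated by the labels or the table. No column or barcode maps to a sample, so the table was treated as 1 sample and no p-value was computed.

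From these deposited counts, barcodes with at least 200 genes were kept and cell types gated on raw marker UMIs (python 3.11.15, numpy 2.4.6, scipy 1.17.1, pandas 2.3.3, scanpy 1.11.5 for Scrublet). Counts were summed per gate, and CPM are per 1000000 UMIs of the gate. A gene was called at 1.5-fold or more with at least 100 UMIs over both types. B-like barcodes hold the most UMIs, so genes that reach this minimum are largely ones they express. Cox6b2 reached it only through erythroid-like barcodes. Intervals are exact Poisson for levels, Clopper-Pearson for shares and conditional binomial for ratios at 95%, and say nothing of the spread between animals. Genes named are the 5 highest and 5 lowest called members per comparison, the mitochondrial members, the paralogue groups and 2 genes from each other list, of which some are printed. The scripts were tested on simulated data.

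Doublets were kept in the main values, and Scrublet called 212 barcodes (2.86%). Alternatives were the mitochondrial limit (10% and 5%), the gate, the gene minimum (500), doublets, depth, weighting, scaling, the UMI minimum and structural subunits alone. The members and lists were chosen with earlier results of these data known. The assembly factor list, the assignment of members to complexes (Ndufa4 to complex IV), the bands (those of haemoglobin and depth were drawn again once after values were seen), the granule and receptor split, the motifs and promoters shown, and the checks of single barcodes, Cox5a and overlapping genes were chosen after the files were seen. The promoters shown were picked after motif matches of all members were known. Coordinates are from GENCODE M21 on GRCm38. Reads of genes with near-identical pseudogene copies may be split or lost in counting. Free RNA adds UMIs to all barcodes.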

Additional observations from a re-analysis of the deposited data

How the results depend on the processing

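Of 50 alternative values of the nuclear to mitochondrial ratio over B-like barcodes, 46 kept their direction, and of 65 alternative counts of members apart by 1.5-fold, 47 stayed within 1.5 times with the same leading direction. With at most 10% mitochondrial UMIs the log2 ratios were 0.60 (T-like), 1.21 (erythroid-like), 1.16 (plasma-like), 1.504 (neutrophil-like) and, turned, 1.05 (macrophage-like). With at most 5% they were -0.21 (turned), 0.12, 0.11, 0.53 and 1.22 (turned) in the same order, each over the 322 B-like barcodes left of 3163. The gate without markers of other types gave 0.79 in erythroid-like, -0.94 (turned) in plasma-like, 1.71 in neutrophil-like and -0.36 in macrophage-like barcodes. With at least 500 genes the values were 1.27, 1.24 and -0.54 in erythroid-like, plasma-like and macrophage-like barcodes, and without Scrublet doublets 1.23 in erythroid-like ones. Thinned to 1000 UMIs the values were 0.69, 1.10, 0.84, 1.29 and -0.77, at 5000 to 10000 UMIs 0.65, 0.67, 1.09, 1.94 and -0.54, and as a mean over barcodes 0.68, 1.22, 0.88, 1.20 and -0.46, for T-like, erythroid-like, plasma-like, neutrophil-like and macrophage-like barcodes. With at least 3 markers the macrophage-like value was -0.66. The mitochondrial limits filter on the members that divide the ratio, so moves under them are partly built in. The cause of the turned values was not tested further. The count of members apart was 4 in T-like barcodes, 7 at 5000 to 10000 UMIs, 2 for subunits alone, and 5, with more lower than higher, both at 5% and without immunoglobulin, haemoglobin and mitochondrial UMIs. In erythroid-like barcodes it was 71, and 24 with at least 500 genes, and turned to mostly higher at 58 without those UMIs and 73 by median-of-ratios scaling. In plasma-like barcodes it was 32, then 56 with the stricter gate and 21 for subunits, and turned to mostly higher at 44 and 66 under these scalings. In neutrophil-like barcodes it was 49, turned at 51 by median-of-ratios scaling. In macrophage-like barcodes it was 18, then 37 at 10%, 43 with the stricter gate, 10 for subunits, 28 and 50 under these scalings, and 37, mostly lower, at 5000 to 10000 UMIs, where 7 barcodes remained. The log2 nuclear share, added after seeing the data, turned in T-like barcodes at 5% (-0.069), in erythroid-like ones with at least 500 genes (0.011) and under the scalings (0.72 and 1.06), in plasma-like ones under the scalings (0.63 and 1.02), in neutrophil-like ones by median-of-ratios (0.79) and in macrophage-like ones at 5000 to 10000 UMIs (-0.041). No paired analysis was possible because barcodes carry no sample. The number of barcodes limits the pDC-like (11) and megakaryocyte-like (31) values, and the median depth was lowest in megakaryocyte-like (742 UMIs) and macrophage-like (859 UMIs) barcodes.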
